A study of Homo sapiens with 2 samples.

Results

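NF-kB is a family of transcription factors that waits in the cytoplasm, bound by inhibitors of the IkB family, until a cytokine or microbial receptor switches on the IkB kinase (IKK). IKK marks the inhibitor for destruction, the released dimers enter the nucleus, and they induce cytokines, adhesion molecules and survival genes together with their own inhibitors, which close the loop. In the liver this pathway joins inflammation to hepatocyte survival and to tumor growth. Its messenger RNAs were examined here in PLC cells, a human liver cancer line. The list was chosen by gene name, with earlier results of these data known. It holds 38 genes, out of 26228 gene names found in both libraries. Of these, 23 are signalling components and 15 are target genes other than chemokines.

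The study set RNA sequencing beside proteomics of secreted proteins in PLC cells that make PRSS35, a secreted serine protease, to find proteins that became scarcer without a fall in their transcripts. The EV cells carried the empty vector and are labelled WT, whereas the PRSS35 cells carried the human PRSS35 coding sequence and are labelled as over-expressing it. Both lines were made by lentiviral infection and puromycin selection, and both are labelled as untreated. With 1 library per condition, differences could not be set against replicates, and p-values are not used. The PRSS35 transcript itself went from an FPKM (sequenced fragments, scaled to transcript length and to the number mapped) of 0.643 in the EV library to 1836 in the PRSS35 library.

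Levels are given as FPKM, with the lower and upper bounds that Cufflinks put around each value. These bounds describe the precision of 1 library and leave out variation between cultures. A change is log2((FPKM in PRSS35 + 1) / (FPKM in EV + 1)), which understates the change of low genes. Names whose FPKM averaged 1 or more were compared, 11103 in all, and their median change was 0.06. A gene was said to have separate bounds where the lower bound in 1 library exceeded the upper bound in the other. In bulk RNA, fewer cells that express a gene and less of its RNA per cell cannot be told apart. All 9 hepatocyte markers had an FPKM of at least 1 in EV cells, from TTR at 1.56 to KRT18 at 2781, although ALB was low at 4.05 in EV and 5.21 in PRSS35 cells. Of the 8 leukocyte markers, PTPRC, CD3E and TYROBP were listed at 0 in both libraries, and CD68 and LYZ made up most of a summed FPKM of 391.3 in EV and 381.8 in PRSS35. The 4 endothelial markers summed to 0.0373 and 0.0307, and the 5 fibroblast markers to 1.75 and 2.03.

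The DNA element read by NF-kB, the kB site, begins with G bases and ends with C bases around a variable core. To show where it lies in these genes, the kB consensus was searched on both strands of the promoter windows of RefSeq (GRCh38.p14), which run from 250 bases before to 50 after each annotated start, and overlapping matches were counted as 1 site. The windows matched 33 of the 38 members by symbol, and CSF1, RELB, IKBKB, NFKBIE and IER3 had no entry. A site was present in 17 of the 33 members (51.5%), against 13.3% of all 27305 genes with a window and 17.6% of the 8177 genes with a window whose names were compared here. Members have more windows each than other genes, and by window the shares were 38.9% of 54 and 11.3% of 35116. Stretches of 30 bases are printed below 5′ to 3′ on the gene's strand, with the site in capitals, for members that were lower in PRSS35 cells (NFKB2, NFKBIB, LTB), for the feedback inhibitors NFKBIA and TNFAIP3, and for targets at or near 0 (VCAM1, IL6). Each was placed on GRCh37, the assembly of the deposited loci, by exact match.
NFKB2, plus strand of chr10:104154218-104154247: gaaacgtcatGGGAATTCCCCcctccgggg
NFKB2, plus strand of chr10:104154247-104154276: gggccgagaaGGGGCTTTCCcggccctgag
NFKBIB, plus strand of chr19:39390571-39390600: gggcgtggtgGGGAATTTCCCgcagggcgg
LTB, minus strand of chr6:31550269-31550298: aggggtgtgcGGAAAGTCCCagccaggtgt
NFKBIA, minus strand of chr14:35874017-35874046: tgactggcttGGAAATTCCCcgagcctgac
TNFAIP3, plus strand of chr6:138188319-138188348: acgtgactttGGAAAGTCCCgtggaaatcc
VCAM1, plus strand of chr1:101185226-101185255: tccccttgaaGGGATTTCCCtccgcctctg
IL6, plus strand of chr7:22766736-22766765: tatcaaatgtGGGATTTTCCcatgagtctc

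Only sites before the RefSeq start of their window were printed. That start is not the only one annotated, and the printed stretches of NFKB2, NFKBIB and LTB overlap annotated exons of the same gene. Those of NFKB2, NFKBIB and VCAM1 lie inside the measured locus, and that of TNFAIP3 does in part. Counted from the start site as 0, the printed site of NFKBIA lay from -81 to -72 and that of LTB from -86 to -77. That of VCAM1 lay from -62 to -53 and that of IL6 from -73 to -64. TNFAIP3 had a second site from -55 to -46, and the NFKB2 windows held 4 sites in all. LTB and NFKBIB each had a second site after the start, from 38 to 47. The site of VCAM1, a gene at 0.0480 FPKM in EV cells, is a letter match of the same kind as those of NFKB2 and NFKBIA, which were well expressed, and IL6, listed at 0, has one too. A match is a description of the letters in this window and not evidence of binding.

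**Figure D1:**
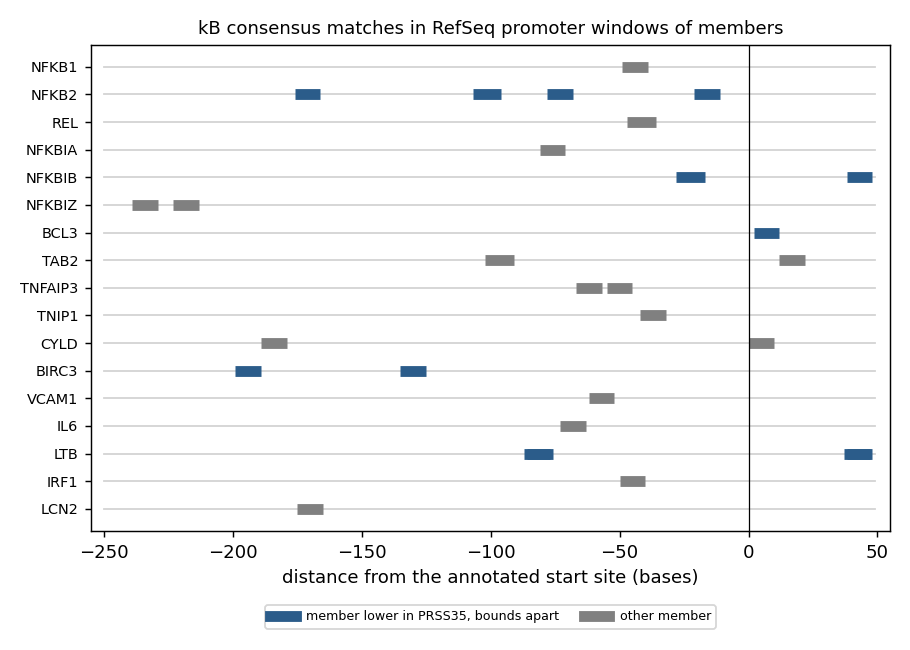
Positions of kB consensus matches (bars) in the RefSeq promoter windows of the 17 members that have one, by distance from the annotated start site in bases; windows of alternative starts of a gene are drawn on 1 line. Most sites lie before the start, and blue marks members with separate bounds and a lower value in PRSS35 cells, including BIRC3, which was under the level compared.

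Most signalling components were expressed in PLC cells, and most targets were not. In EV cells 18 of the 23 signalling components had an FPKM of at least 1, and 6 of them at least 50, counting the joint locus of RELB described below. Of the 15 targets only IER3, SOD2, ICAM1, LTB, CSF1 and IRF1 reached 1 in either library. The inflammatory cytokines IL6, IL1A and IL1B and the prostaglandin synthase PTGS2 were listed at 0 in both libraries. An entry of 0 here need not mean that no fragment was present. Of the 11103 names compared, 215 were listed at 0 in 1 library only. LTBR, the receptor of lymphotoxin beta, which epithelial cells generally express, was listed at 0 in both (a gene picked after its value was seen). What lies behind entries of 0 was not tested.

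Among the DNA-binding subunits, NFKB2, the precursor of p52 in the non-canonical branch, was the most abundant. At chr10:104153867-104162286, its FPKM was 98.3 (bounds 95.0 to 101.6) in EV cells and 81.9 (bounds 79.2 to 84.5) in PRSS35 cells, for a log2 change of -0.26. RELA, the p65 subunit that carries most of the activating function (chr11:65421067-65430443), had 79.9 (bounds 76.0 to 83.8) and 67.0 (bounds 63.6 to 70.4), a log2 change of -0.25. Both were lower in PRSS35 cells by about the same fraction, and the ratio of RELA to NFKB2 was 0.813 in EV and 0.819 in PRSS35. NFKB1, the precursor of p50, was at 5.64 (bounds 5.16 to 6.13) and 5.83 (bounds 5.35 to 6.30), so that its bounds overlapped. NFKB2 exceeded NFKB1 by 17.4 times in EV and 14.1 times in PRSS35 cells. REL, the subunit typical of lymphocytes, was at 0.444 and 0.362, and RELA exceeded it by 179.9 and 185.3 times.

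RELB, the partner of p52, could not be compared in the same way. In the EV library its locus was joined by assembly with its neighbor CLASRP, and this joint locus had an FPKM of 68.5 (bounds 65.4 to 71.6). In the PRSS35 library RELB stood alone at 33.1 (bounds 31.3 to 34.9), with CLASRP at 21.7 beside it. The resulting log2 change of -1.03 sets a locus of 2 genes against 1 gene, and how much of it belongs to RELB was not tested.

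The inhibitors sit upstream of nuclear entry, and in cells at rest they hold the dimers in the cytoplasm. NFKBIB (IkB beta, chr19:39390340-39399534) had the highest FPKM of the signalling components, at 140.1 (bounds 133.5 to 146.7) in EV and 127.5 (bounds 121.5 to 133.5) in PRSS35 cells, and its bounds missed each other by 0.037 FPKM. NFKBIA (IkB alpha), the classical feedback inhibitor that NF-kB itself induces, had 29.0 (bounds 27.3 to 30.7) and 26.3 (bounds 24.7 to 27.9), which overlap. Its log2 change was -0.14 (interval -0.26 to -0.02 from both bounds). NFKBIE (IkB epsilon) had 20.2 (bounds 18.8 to 21.5) and 17.7 (bounds 16.7 to 18.7), apart by 0.106 FPKM. The NFKBIE locus was assembled from the reads in the EV library only, and the part of assembly in this gap was not tested. Its implied fragments went the other way, from about 889.0 in EV to 1276 in PRSS35 cells. NFKBIB and NFKBIE were thus lower in PRSS35 cells with changes of -9.03% and -12.2%, by narrow margins between the bounds. NFKBIA changed by about as much as NFKBIB, at -9.44%, but its bounds were wider for its level and overlapped. The ratio of NFKBIB to NFKBIA was nearly the same in the libraries, at 4.83 and 4.85.

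The nuclear members of the IkB family act on NF-kB bound to DNA. BCL3 (chr19:45251978-45263301), a coactivator of p50 and p52 dimers, had 45.2 (bounds 42.5 to 47.9) in EV and 36.6 (bounds 34.9 to 38.4) in PRSS35 cells, for a log2 change of -0.30 with separate bounds. Its locus was assembled from the reads in the EV library only. The bounds of BCL3 imply about 1140 fragments in EV and 1831 in PRSS35 cells, the opposite direction to its FPKM. The part of assembly in this was not tested. NFKBIZ was read only through a locus joined with NXPE3 in both libraries, at 1.35 and 1.38.

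The IKK complex did not move as a unit. IKBKG (NEMO), its regulatory scaffold, had 35.6 (bounds 33.5 to 37.7) and 34.1 (bounds 32.0 to 36.1). IKBKB, the kinase of the canonical branch, had 7.80 (bounds 7.19 to 8.41) in EV and 9.66 (bounds 9.00 to 10.3) in PRSS35 cells. Its log2 change of 0.28 made it the only signalling component with separate bounds and a higher value. CHUK (IKK alpha), the kinase of the non-canonical branch, had 3.57 (bounds 3.20 to 3.95) and 3.07 (bounds 2.72 to 3.42), which overlap. The ratio of IKBKB to CHUK was 2.18 in EV and 3.15 in PRSS35 cells. IKBKG has a near-identical pseudogene, so its level is uncertain.

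Upstream of IKK, receptor signals pass through TRAF adaptors and the ubiquitin ligases BIRC2 and BIRC3 to the kinase MAP3K7 (TAK1) and its partner TAB2. TRAF2, the adaptor of the TNF receptors, had 64.3 (bounds 61.5 to 67.2) in EV and 54.7 (bounds 51.8 to 57.7) in PRSS35 cells, for a log2 change of -0.23. BIRC2 had 7.38 (bounds 6.72 to 8.03) and 5.67 (bounds 5.12 to 6.21), a log2 change of -0.33, the lowest value among signalling components that stood alone at their locus. Both had separate bounds. BIRC3, itself induced by NF-kB, had 0.973 (bounds 0.828 to 1.12) and 0.617 (bounds 0.502 to 0.731). These bounds are also separate, but the mean was under the level compared, and the bounds imply about 180.7 and 116.6 fragments. TRAF6, the adaptor of the interleukin-1 and Toll-like receptors, was at 0.283 and 0.410 with overlapping bounds, far below TRAF2 in both libraries (a ratio of 227.7 in EV and 133.3 in PRSS35). MAP3K7, at 2.36 in EV cells (log2 change -0.07), TAB2, at 2.44 and 2.84, and TRAF1, at 0.544 and 0.557, had overlapping bounds. The EV value of TRAF1 is weak, as its lower bound is 0. Its bounds imply about 2.72 fragments in EV cells, against 64.8 in PRSS35 cells at nearly the same FPKM. The TRAF1 locus was assembled in the EV library alone, and the part of assembly in these numbers was not tested.

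The brakes of the pathway showed no separate bounds. TNFAIP3 (A20), an NF-kB-induced ubiquitin-editing enzyme, had 1.84 (bounds 1.60 to 2.08) in EV and 1.44 (bounds 1.22 to 1.65) in PRSS35 cells, for a log2 change of -0.22 with an interval of -0.40 to -0.04. Its partner TNIP1 was at 52.5 (bounds 50.3 to 54.8) and 52.7 (bounds 50.7 to 54.7), the log2 change closest to 0 among all members compared (0.00). CYLD, a deubiquitinase, was at 0.572 and 0.629. TNIP1 exceeded TNFAIP3 by 28.5 times in EV and 36.6 times in PRSS35 cells.

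Among the targets, LTB (lymphotoxin beta, chr6:31548336-31550202), a membrane cytokine that signals to the non-canonical branch, had 16.7 (bounds 14.7 to 18.6) in EV and 12.2 (bounds 10.5 to 13.8) in PRSS35 cells. Its log2 change of -0.42 (interval -0.67 to -0.18) was the lowest of the members that stood alone, and about 282.9 and 215.0 fragments stood behind the values. ICAM1 (chr19:10381517-10397291), the adhesion molecule that leukocytes grip, had 34.4 (bounds 32.4 to 36.3) and 29.2 (bounds 27.6 to 30.9), a log2 change of -0.23. Both were lower with separate bounds. ICAM1 shares 23.6% of its exon bases with the antisense gene ICAM4-AS1, and whether the counting used strand was not stated.

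SOD2, the mitochondrial superoxide dismutase (chr6:160100149-160114372), went the other way, with 61.0 (bounds 57.1 to 64.9) in EV and 70.5 (bounds 66.1 to 74.8) in PRSS35 cells, for a log2 change of 0.21. IER3, an early survival gene, was read only through a locus joined with FLOT1 in both libraries, which had 309.2 (bounds 298.7 to 319.6) and 341.4 (bounds 329.3 to 353.6). The share of IER3 in this locus is not given by the values. CSF1, the macrophage growth factor, had 5.96 and 5.85, and the transcription factor IRF1 had 2.92 and 3.23, each with overlapping bounds. IRF1 shares 22.4% of its exon bases with IRF1-AS1. Targets thus lay on both sides of 0.

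The other targets were at the edge of detection. LCN2, a secreted iron-carrier protein, had 0.699 (bounds 0.269 to 1.13) and 0.760 (bounds 0.338 to 1.18), from about 10.6 and 13.0 fragments. VCAM1, the second adhesion molecule, had 0.0480 and 0.0463, and TNFAIP2 had 0.0245 and 0.0244, each with a lower bound of 0. TNF had 0.0227 and CSF2 had 0.188 in EV cells, also with a lower bound of 0, and both were listed at 0 in PRSS35 cells. Differences in these genes were not detectable at this depth.

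**Figure D2:**
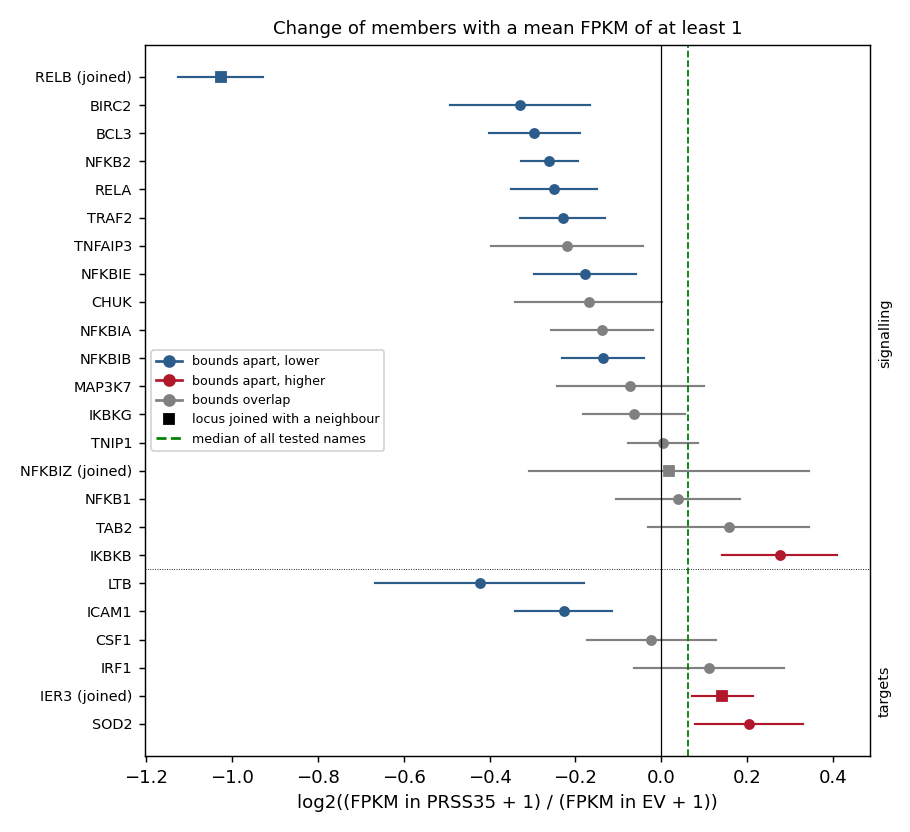
Log2 change in PRSS35 over EV cells of the 24 members whose FPKM averaged 1 or more, with intervals from the Cufflinks bounds (error within a library only), signalling components above the dotted line and targets below it. Of the 18 signalling components 13 lie below 0 and most lie left of the median of all compared names at 0.06 (green dashes), whereas the 6 targets are spread from LTB at -0.42 to SOD2 at 0.21; squares mark joined loci.

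Of the 38 members, 24 had a mean FPKM of at least 1 and were compared. By 2-fold, 1 member was lower and 0 were higher. The 1 was RELB with its joined EV locus, and without joined loci the count was 0. Among all names compared, 2.5% were lower and 2.71% were higher by 2-fold or more, so the 2-fold count of members is near the background. On the deposited scale, 10 members were lower with separate bounds, against 15.5% of all names, and 3 were higher, against 25.2%. The 10 lower were NFKB2, RELA, RELB, NFKBIB, NFKBIE, BCL3, TRAF2, BIRC2, LTB and ICAM1, which is 41.7% of the 24, and the 3 higher were IKBKB, SOD2 and IER3 (12.5%). The bounds of the other 11 overlapped. The counts include RELB and IER3, which were read through joined loci. Without joined loci, 9 of 21 members were lower and 2 higher, against 14.1% and 24.8% of names.

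The signalling components had a median log2 change of -0.15, with 13 of 18 below 0, 8 lower with separate bounds and 1 higher. Without joined loci, 7 of 16 were lower and 1 higher, with the same median. Among all 11103 names compared, the median was 0.06, 4424 were below 0, 15.5% were lower with separate bounds and 25.2% were higher. The 6 targets had a median of 0.04, with 2 lower and 2 higher. Without the joined locus of IER3, the other 5 had a median of -0.023, with 2 lower and 1 higher. The signalling components were also split by whether NF-kB is known to induce them. The 9 induced ones, the joint RELB locus included, had a median of -0.18 with 4 lower, and the 9 others a median of -0.14 with 4 lower and 1 higher. Among names that stood alone and were assembled alike, 1 of 4 induced components and 4 of 8 others were lower, against 14.6% of all such names. The difference between induced components and the others was not tested. Of the compared members with a kB site in their promoter windows, 4 of 11 were lower (median -0.14), and of those without one, 4 of 8 (median -0.20).

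**Figure D3:**
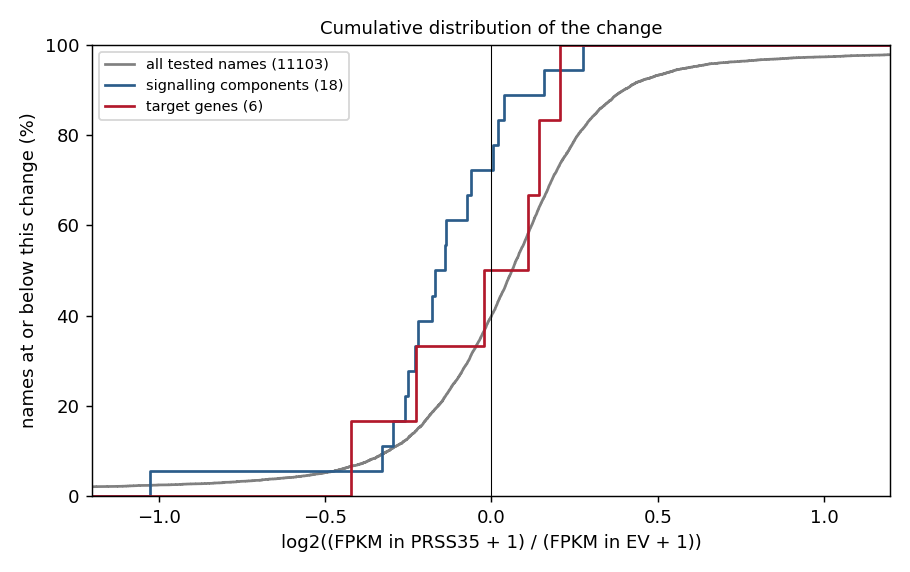
Cumulative share of names at or below each log2 change, for all 11103 names compared (grey), the 18 signalling components (blue) and the 6 targets (red). The blue curve runs to the left of the grey one over most of its length, with medians of -0.15 and 0.06, while the red curve crosses it.

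These counts rest on small differences, so the background was also read by level and by base composition. Joined loci, that of RELB among them, were included. Highly expressed names have narrow bounds, and 20.4% of names with a mean FPKM from 20 to under 100 were lower with separate bounds, against 6 of the 10 members at that level. At 5 to under 20 FPKM the share was 10.9% of names and 3 of 6 members, and from 1 to under 5 it was 7.73% of names and 0 of 6 members. At 100 FPKM or more, 35.5% of names and 1 of 2 members were lower. GC content moved with the result. Members compared had a median transcript GC content of 56.6%, those lower with separate bounds 61.2%, and all names 50.1%. Of the 3453 names with a GC content of 55% or more, 27.1% were lower, with a median log2 change of -0.02. In that range 9 of 13 members were lower, with a median of -0.23. With both limits, at a GC content of 55% or more and a mean FPKM of 20 or more, 7 of 10 members and 36.0% of 1979 names were lower. Below it, 1 of 6 members under 45% (BIRC2) and 0 of 5 members from 45% to under 55% were lower, beside 9.75% and 9.28% of names. The part of GC content in the difference of single genes was not tested.

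Assembly by Cufflinks, done for each library on its own, also touched members. NFKB1, REL, NFKBIE, BCL3, MAP3K7, TRAF1 and LCN2 were assembled from the reads in the EV library alone and VCAM1 in the PRSS35 library alone. Among members that stood alone and were annotated or assembled alike in both libraries, 7 of 17 were lower with separate bounds, against 14.6% of names, and 2 were higher, against 24.1%. The 7 were NFKB2, RELA, NFKBIB, TRAF2, BIRC2, ICAM1 and LTB. Only BIRC2 and LTB were annotated in both. The others were assembled in each library on its own, so their transcript models need not be the same. The implied fragments rose for NFKB2 (3549 to 3807) and ICAM1 (1210 to 1252) while FPKM fell. They fell for RELA, NFKBIB, TRAF2, BIRC2 and LTB. The part of assembly in these values was not tested. The direction depends on the scale. Dividing FPKM by its upper quartile left 10 members lower and 3 higher with separate bounds, against 17.1% and 22.7% of names. When FPKM was divided by its sum over all loci, which was 2469030 in EV and 1508530 in PRSS35, the median change of all names became 0.68, 85.9% of names were higher and 2.42% lower, and 20 members were higher and 1 was lower. The signalling median was then 0.47, again below that of all names.

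Of 41 other genes of the pathway, 33 had a mean FPKM of at least 1. Their median log2 change was 0.06, the same as that of all names. With separate bounds 6 (18.2%) were lower and 5 (15.2%) higher, against 15.5% and 25.2% of all names. SKP1, a subunit of the ubiquitin ligase that removes IkB, was at 28.0 in EV and 80.6 in PRSS35 cells. Its log2 change of 1.49 was the only one past 2-fold, and its locus was assembled in the PRSS35 library alone. Its implied fragments went the other way, from about 914.9 in EV to 767.5 in PRSS35 cells. MAP3K14 (NIK), the kinase that starts the non-canonical branch, was at 10.4 (bounds 9.63 to 11.1) and 5.70 (bounds 5.22 to 6.18), a log2 change of -0.76. Its locus was assembled in the EV library alone, and its implied fragments were about 819.3 and 563.1. The part of assembly in these values was not tested. NFKBIL1 was at 81.4 and 61.4 (log2 change -0.40) and NFKBID, a nuclear IkB, at 5.26 and 3.69 (-0.42), both with separate bounds and treated alike in the libraries. MYD88, the adaptor of Toll-like receptors, was annotated in both and higher in PRSS35 cells, at 1.66 (bounds 1.35 to 1.96) and 2.73 (bounds 2.34 to 3.12), a log2 change of 0.49. By group, 1 of 11 receptors and adaptors was lower and 1 higher. For ubiquitin ligases and kinases, 3 of 11 were lower and 1 higher. Of 11 genes listed under degradation and control of IkB, 2 were lower and 3 higher. This last list is broad and includes the nuclear IkB NFKBID.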

How the data were processed

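The authors prepared total RNA from PLC cells, 1 EV and 1 PRSS35 library, for a HiSeq2500. They aligned reads to hg19 with TopHat2 2.1.0 and ran Cufflinks 2.2.1 (Cuffdiff 2.2.1 in the submitters' processing notes); the annotation release is not given in the sources used here. The deposited values are FPKM per locus with lower and upper bounds, scaled by the authors for transcript length and mapped fragments. They hold no read counts. Fragment numbers are implied by the bounds, taken as 2 Poisson standard errors on each side.

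Here, loci on alternate haplotypes and unplaced contigs, all at 0, were left out. Rows with the same gene name were summed (bounds in quadrature), and a name found only inside a joined locus took that locus. Intervals of a log2 change combine both bounds. Members and lists were chosen with earlier results of these data known. Beside the members, the named genes are PRSS35, cell type markers and the 5 other pathway genes with the largest log2 change among those with a mean FPKM of at least 1 and above 0 in both libraries, and LTBR and the partners of joined loci were added later. GC content and exon overlap come from GENCODE v44lift37, on GRCh37; GC content was found for 91.5% of names compared and for all 24 members. Alternatives were other scalings, pseudocounts of 0.1 and 5 FPKM, other filters, 1.5-fold, the highest locus per name and added joined loci; leaving out joined loci or those assembled in 1 library was chosen after seeing the data. The functions were tested on simulated data. Python 3.11.15, numpy 2.4.6, pandas 2.3.3 and matplotlib 3.10.9 were used.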

Additional observations from a re-analysis of the deposited data

How the results depend on the processing

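Each condition has 1 library, and bounds cover error within a library only, so a difference between the cell lines and one between culture dishes cannot be told apart. No paired analysis was possible because there was 1 library for EV and 1 for PRSS35. Several targets, such as TNFAIP2 and LCN2, rest on few fragments.

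Scaling each library to its summed FPKM changed most values: 0 members were lower by 2-fold, 1 was lower and 20 were higher with separate bounds, and the median log2 change was 0.47 for signalling components and 0.64 for targets, beside 0.68 for all names. Values that were lower by the deposited scale became positive with it, at 0.44 for NFKB2, 0.45 for RELA, 0.57 for NFKBIB, 0.50 for NFKBIE, 0.40 for BCL3, 0.47 for TRAF2, 0.29 for BIRC2, 0.47 for ICAM1 and 0.24 for LTB, all below the median of all names.

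The count lower by 2-fold, which was RELB alone, became 0 with a pseudocount of 5 FPKM, without joined loci, and among names assembled alike. Centring on the median of all names gave medians of -0.22 for signalling components and -0.018 for targets. The target median was -0.023 for names with a mean FPKM of at least 5, without joined loci, and among names assembled alike, settings that leave out IER3 or IRF1. Outside scaling to the sum, the signalling median stayed between -0.22 and -0.10, and members with separate bounds were 7 to 11 lower and 2 to 3 higher. These counts come from different numbers of members, from 17 among names assembled alike to 38 with no filter. The shares of all names differed too. With no filter 7.49% were lower and 12.0% higher, and with a mean FPKM of at least 5 the shares were 19.5% and 29.2%.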
